A study of Mus musculus with 2 samples.

Results

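The genes described here are 8 smooth muscle genes that mark the peritubular myoid cell layer of the testis: Acta2, Actg2, Myh11, Mylk, Tpm2, Cnn1, Tagln and Des. They were chosen by gene symbol, not by a measured value, though with earlier results of these data known. They are 8 of 39695 gene entries, of which 37692 could be matched to a symbol. RNA was measured by sequencing in whole testes of mice at postnatal day 9 (P9), with 1 library from control males and 1 library from Bcas2F/-;Vasa-Cre males. Bcas2 encodes a component of the spliceosome, and the comparison asks what its loss from germ cells does to the RNA of the testis. Both groups shared the F/- state of Bcas2, with 1 allele floxed and the other deleted. The labels call the controls only control, and the study's methods give them as Bcas2F/- males without the transgene. The mutant group also carried Vasa-Cre, whose recombinase acts in germ cells. The labels give the strain of both groups as C57BL/6, where the study's methods describe the line as of mixed background, and the number of mice behind each library was not given in the sources used here. By this design the somatic cells of the testis, peritubular myoid cells among them, were F/- in both groups.

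Peritubular myoid cells are flat, contractile cells that wrap the seminiferous tubules. Together with Sertoli cells they lay down the tubule's basement membrane, and their contractions move fluid and sperm along the tubule. As in other smooth muscle, calcium bound to calmodulin switches on myosin light chain kinase, which phosphorylates the myosin light chain so that myosin can pull on actin filaments. Genes of this machinery are commonly switched on by serum response factor (SRF) with its partner myocardin. Smooth muscle of blood vessels uses the same genes, so RNA from whole testes does not separate the peritubular layer from vessel walls.

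The targeted gene was examined first. Bcas2 (ENSMUSG00000005687, chromosome 3, 103171655 to 103179166, plus strand) stood at 39.5 RPKM in the control library and at 25.7 RPKM in the Bcas2F/-;Vasa-Cre library. With 1 RPKM added to each value, the second was 0.658 times the first. RPKM is a read count scaled to gene length and library size, so it allows levels of different genes to be compared. Library sizes recovered from the values were 19918750 and 19331687 reads. With 1 library per genotype there was no replicate error and no test. The 95% intervals below cover counting error only, and a difference between the libraries is not shown to be a difference between the genotypes.

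All 8 smooth muscle genes were expressed in both libraries, and none differed by more than 1.5-fold. Their log2 ratios (Bcas2F/-;Vasa-Cre over control, on RPKM + 1) ran from -0.13 for Acta2 to 0.11 for Mylk, with a median of -0.05. Of the 8 genes, 5 had the lower value in the Bcas2F/-;Vasa-Cre library and 3 the higher. The largest difference was 1.09-fold. Summed over the 8 genes, the level was 685 RPKM in the control and 652 RPKM in the Bcas2F/-;Vasa-Cre library, a log2 ratio of -0.07. Acta2 alone held 344 and 314 RPKM of these sums, so most of the difference between them was that of Acta2. For summed reads the log2 ratio was -0.03 (-0.05 to -0.01). In whole testes, fewer cells of a type and less RNA per cell cannot be told apart.

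**Figure D1:**
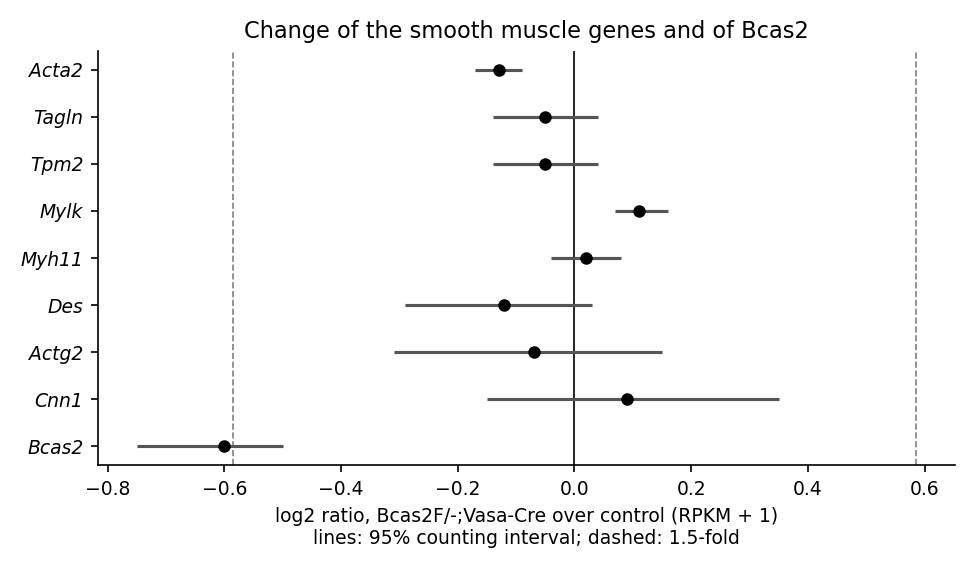
Log2 ratio of each of the 8 smooth muscle genes and of Bcas2, Bcas2F/-;Vasa-Cre over control. Points are log2 ratios and bars are 95% counting intervals of the read ratio. Among the smooth muscle genes the intervals lie off 0 for Acta2 (-0.17 to -0.09) and Mylk (0.07 to 0.16) and hold 0 for the others. The interval of Bcas2 (-0.75 to -0.5) lies below 0.

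None of the 8 genes was past 1.5-fold in either direction. Among all 14831 genes with a mean of at least 1 RPKM, 1.69% passed 1.5-fold downward and 1.57% upward. At 2-fold the count was again 0 of 8 in each direction, beside 0.378% of all genes lower and 0.425% higher. Read against shares this small, 0 of 8 does not set these genes apart. The counting interval lay wholly below 0 for 1 gene (Acta2), beside 17.6% of all genes, and wholly above 0 for 1 gene (Mylk), beside 19.6% of all genes. These shares are near the background too.

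Acta2 and Actg2 encode the smooth muscle alpha and gamma actins, the subunits of the thin filament. Their coding sequences are 84.2% identical, so their opening bases are shown to make visible how far short reads can tell them apart. The sequences are from GENCODE M21, 5′ to 3′ from the start codon, and capitals in Actg2 mark the 13 bases that differ from Acta2. Actg2 also lacks 3 bases of this stretch.
Acta2: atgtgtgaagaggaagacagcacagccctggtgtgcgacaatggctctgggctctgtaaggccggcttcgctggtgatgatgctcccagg
Actg2: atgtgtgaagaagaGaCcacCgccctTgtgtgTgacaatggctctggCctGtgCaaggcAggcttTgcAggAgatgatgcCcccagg
The longest run that both coding sequences share is 29 bases, from base 637 to base 665 of Acta2.
Shared run: gacatcaaggagaagctgtgctatgtagc

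Acta2 (ENSMUSG00000035783, chromosome 19, 34241090 to 34255590, minus strand) had 344 RPKM (337 to 350) in the control and 314 RPKM (308 to 320) in the Bcas2F/-;Vasa-Cre library. The 2 intervals did not overlap, and the log2 ratio was -0.13 (-0.17 to -0.09). Acta2 was by level the main gene of the group, with 50.2% of the summed RPKM of the 8 genes in the control and 48.1% in the Bcas2F/-;Vasa-Cre library. Among 483 genes with a mean level within 2-fold of its own, 69.4% had a smaller difference between the libraries, and the SD of their log2 ratios was 0.145. The Acta2 difference was therefore beyond its counting error and within 1 SD of genes at its level.

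Actg2 (ENSMUSG00000059430, chromosome 6, 83512905 to 83536265, minus strand) had 16.4 RPKM (14.6 to 18.3) in the control and 15.5 RPKM (13.8 to 17.4) in the Bcas2F/-;Vasa-Cre library. Its log2 ratio was -0.07 (-0.31 to 0.15), so the 2 libraries could not be told apart at this depth. Because the authors' counting could split reads between actins, the reads of both genes were also summed. Together they had 12507 and 11096 reads in the control and Bcas2F/-;Vasa-Cre libraries, with a log2 ratio of -0.13 (-0.17 to -0.09). Acta2 alone gave 12187 and 10802 of these reads. The sum was therefore bound to lie near the value of Acta2 and does not test a split of reads.

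Myh11 encodes the smooth muscle myosin heavy chain, the motor of the thick filament, and is the strictest marker of differentiated smooth muscle among the 8. Myh11 (ENSMUSG00000018830, chromosome 16, 14194535 to 14291372, minus strand) stood at 36.3 RPKM (35.3 to 37.3) in the control and 36.8 RPKM (35.7 to 37.8) in the Bcas2F/-;Vasa-Cre library. Its log2 ratio of 0.02 (-0.04 to 0.08) was the smallest of the 8 in size, and only 10.8% of genes at its level differed less. With 4792 and 4715 reads behind it, this interval leaves little room for a difference between these libraries.

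Mylk encodes myosin light chain kinase, the calmodulin-dependent enzyme that starts contraction. Mylk (ENSMUSG00000022836, chromosome 16, 34745210 to 35002420, plus strand) had 67.2 RPKM (65.6 to 68.7) in the control and 72.6 RPKM (71.0 to 74.2) in the Bcas2F/-;Vasa-Cre library. The intervals lay apart, with a log2 ratio of 0.11 (0.07 to 0.16), against an SD of 0.159 among genes at its level. Mylk was thus the single gene of the group with an interval wholly above 0, opposite in sign to Acta2.

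Tpm2, Cnn1 and Tagln encode proteins that sit on the actin filament. Tpm2 encodes beta-tropomyosin, which lies along the filament. Tpm2 (ENSMUSG00000028464, chromosome 4, 43514711 to 43523765, minus strand) stood at 78.5 RPKM (75.1 to 82.0) and 75.6 RPKM (72.3 to 79.1) in the control and Bcas2F/-;Vasa-Cre libraries, a log2 ratio of -0.05 (-0.14 to 0.04). Cnn1 encodes calponin, which restrains the myosin motor. Cnn1 (ENSMUSG00000001349, chromosome 9, 22099216 to 22109630, plus strand) stood at 10.9 RPKM (9.65 to 12.4) and 11.7 RPKM (10.3 to 13.2), a log2 ratio of 0.09 (-0.15 to 0.35). Tagln encodes transgelin (SM22 alpha), an actin cross-linking protein. Tagln (ENSMUSG00000032085, chromosome 9, 45929619 to 45936058, minus strand) stood at 110.0 RPKM (105 to 115) and 106 RPKM (102 to 111), a log2 ratio of -0.05 (-0.14 to 0.04). In each of these 3 genes the intervals of the 2 libraries overlapped.

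Des encodes desmin, the muscle intermediate filament that links the contractile units to the cell membrane. Des (ENSMUSG00000026208, chromosome 1, 75360329 to 75368579, plus strand) had 22.1 RPKM (20.4 to 23.8) in the control and 20.2 RPKM (18.7 to 21.9) in the Bcas2F/-;Vasa-Cre library. The log2 ratio of -0.12 was close to that of Acta2, but Des had 681 and 606 reads where Acta2 had 12187 and 10802, and its interval (-0.29 to 0.03) held 0.

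**Figure D2:**
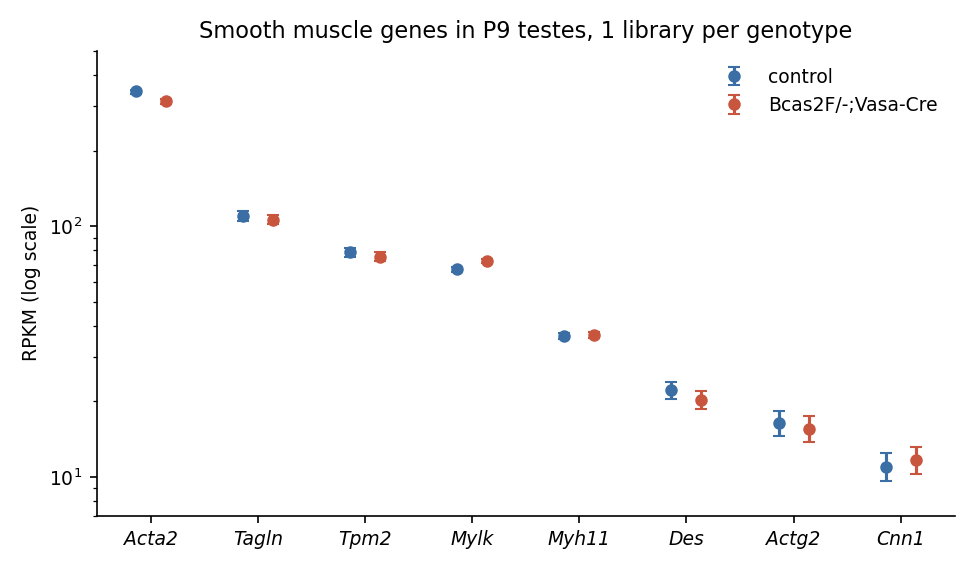
RPKM of the 8 smooth muscle genes in the control and the Bcas2F/-;Vasa-Cre library on a log axis, with bars for 95% counting intervals. Levels fall from Acta2 (344 and 314 RPKM) to Cnn1 (10.9 and 11.7 RPKM) in the same order in both libraries.

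The order of the 8 levels was the same in both libraries: Acta2, Tagln, Tpm2, Mylk, Myh11, Des, Actg2 and Cnn1. The steepest step was between Acta2 and Tagln, 3.12-fold in the control and 2.95-fold in the Bcas2F/-;Vasa-Cre library. The closest neighbours were Tpm2 and Mylk, 1.17-fold apart in the control and 1.04-fold apart in the Bcas2F/-;Vasa-Cre library, where their intervals overlapped. All other neighbours in the order had intervals that lay apart in both libraries. These comparisons rest on the gene lengths the authors divided by, which by the recovered reads ran from 951.6 bases for Tagln to 6632 bases for Myh11. These lengths are uncertain, because that of Myh11 exceeds its longest GENCODE M21 transcript (6549 bases) and that of Mylk (5451 bases) lies far from the mean of its M21 transcripts (2344 bases).

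The differences of the 8 genes were ordinary in size among expressed genes. Over all 14831 genes the median log2 ratio was 0.02 with an SD of 0.259, and 46.3% were lower in the Bcas2F/-;Vasa-Cre library. Of these genes, 52.6% differed by no more than the largest difference of the 8. Among the 8019 genes whose mean level lay within the range of the 8 (11.3 to 329 RPKM), 59.9% did so, and the SD was 0.177.

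**Figure D3:**
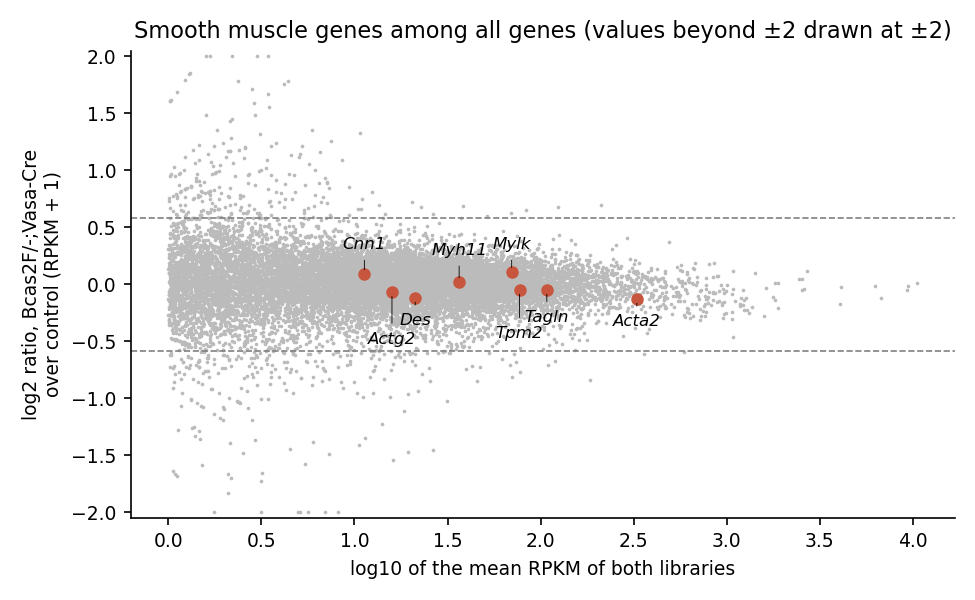
Log2 ratio (Bcas2F/-;Vasa-Cre over control, RPKM + 1) against the log10 of the mean RPKM for all 14831 genes with a mean of at least 1 RPKM, with the 8 smooth muscle genes marked. The 8 genes lie between -0.13 and 0.11, inside the bulk of genes at their levels.

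Each of the 8 genes has sister isoforms in other muscle or in all cells, and its share of the family was nearly equal in the 2 libraries. Acta2 made up 19.0% of the RPKM of 6 actin genes in the control and 18.3% in the Bcas2F/-;Vasa-Cre library. Actg2 made up 0.907% and 0.905%. The cytoplasmic actins Actb (963 and 937 RPKM) and Actg1 (481 and 445 RPKM) held most of the rest. Myh11 gave 17.1% and 17.2% of 4 non-sarcomeric myosin heavy chains. Mylk gave 97.7% and 97.6% of the 4 light chain kinase genes, so the smooth muscle and non-muscle kinase was nearly the whole of its family. Tagln held 63.5% and 64.8% of 3 transgelin genes. Tpm2 held 9.63% and 9.37% of 4 tropomyosins, in which Tpm3 (327 and 330 RPKM) was the most abundant. Cnn1 held 3.66% and 3.84% of 3 calponins. Des held 2.6% and 2.5% of its sum with vimentin (Vim, 826 and 790 RPKM), the intermediate filament of mesenchymal cells.

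**Figure D4:**
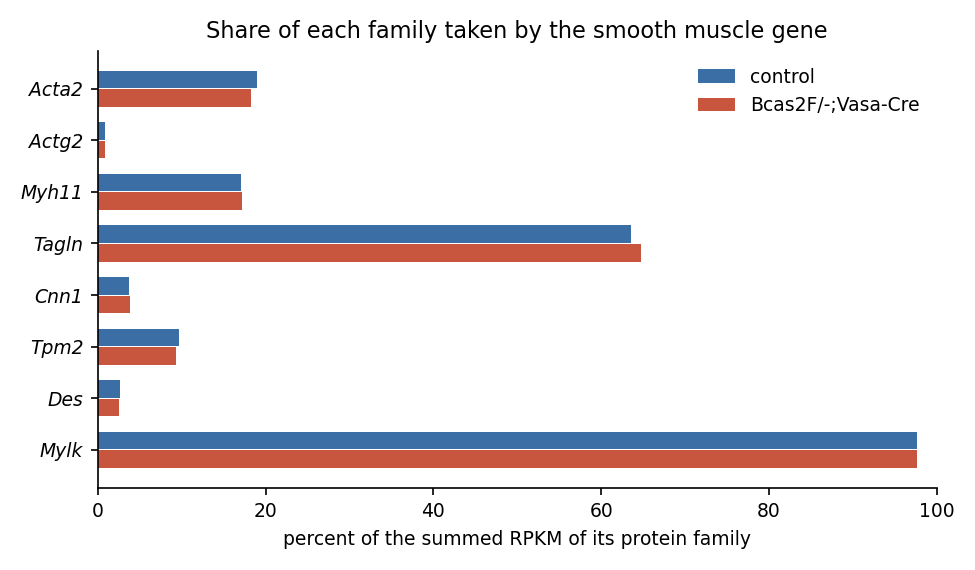
Share of each smooth muscle gene in the summed RPKM of its gene family, in percent, in the control and the Bcas2F/-;Vasa-Cre library. Shares run from 0.907% and 0.905% for Actg2 to 97.7% and 97.6% for Mylk, and the 2 libraries give nearly the same share for each gene.

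The 18 sister isoforms as a list, with Tpm1, Actb and Vim among them, had 13 genes with a mean of at least 1 RPKM. None was past 1.5-fold, and their median log2 ratio was -0.01. The counting interval was wholly below 0 for 5 of the 13, beside 17.6% of all genes, and wholly above 0 for 0, beside 19.6%. The coding sequences of the sisters were compared base by base, since near-identical stretches can share reads. Identity to Acta2 was 82.8% for Actb, 81.5% for Actg1, 85.4% for the skeletal actin Acta1 and 82.5% for the cardiac actin Actc1. The longest run Acta2 shares with another of these actins is 56 bases, with Actg1. Myh11 was 74.8% identical to Myh9 and 71.2% to Myh10, with runs of up to 65 bases. Tpm2 and Tpm3 were 74.2% identical, Tagln and Tagln2 69.1%, Des and Vim 68.1%, and Cnn1 and Cnn2 65.2%.

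Genes that overlap the 8 on the other strand add uncertainty for 3 of them, since the strand setting of the counting was not given. Exons of Gm48529 cover 1241 of the 1988 exonic bases of Tagln, and those of Pcsk7 cover 108. Pcsk7 was at 6.0 and 7.01 RPKM, far under Tagln. Gm15179 covers 220 of 3754 exonic bases of Des and was listed at 0 in both libraries. E130310I04Rik and Gm21691 cover 548 and 224 of the 11263 exonic bases of Mylk. Gm48529, E130310I04Rik and Gm21691 had no entry among the values, so their levels are not known here.

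The other genes of contraction were next examined by lists. Of 24 other contractile and anchoring genes, 21 had a mean of at least 1 RPKM, 0 were past 1.5-fold, and the median log2 ratio was 0.06. The most abundant were the myosin light chains Myl6 (551 and 524 RPKM) and Myl9 (503 and 497 RPKM), the tropomyosin Tpm1 (254 and 259 RPKM) and the actin cross-linker filamin A, Flna (167 and 178 RPKM). Myl9, the smooth muscle light chain that Mylk phosphorylates, was thus near-equal, with a log2 ratio of -0.02 (-0.07 to 0.03). The counting interval was wholly above 0 for 5 of the 21, near the 19.6% of all genes, and wholly below 0 for 1, beside 17.6%.

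Of 15 signalling genes of contraction, none was past 1.5-fold and the median log2 ratio was -0.02. The counting interval was wholly below 0 for 4 of the 15, beside 17.6% of all genes, and wholly above 0 for 2, beside 19.6%. Calm2 and Calm3, which encode calmodulin, the calcium sensor of Mylk, were the most abundant. Calm2 stood at 555 and 465 RPKM (log2 ratio -0.26) and Calm3 at 411 and 388 RPKM. Rhoa, which encodes the small GTPase that keeps the light chain phosphorylated, stood at 194 and 198 RPKM. Among 10 genes of contraction ligands and receptors, 7 had a mean of at least 1 RPKM, 0 of them were past 1.5-fold, and the median was -0.01. The endothelin-converting enzyme Ece1 (74.6 and 74.4 RPKM) and the endothelin receptor Ednra (25.0 and 24.9 RPKM) were near-equal. Their ligand Edn1 stood at 18.2 and 16.0 RPKM, and the receptor Ednrb at 3.62 and 4.06 RPKM. The vasopressin receptor Avpr1a, picked after its values were seen, had the largest log2 ratio of this list, 0.50, at 1.43 and 2.44 RPKM on 76 and 126 reads. The count of 0 rests on the pseudocount, since with 0.1 RPKM in place of 1 the ratio of Avpr1a was 0.73 and past 1.5-fold.

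Regulators of the smooth muscle genes were also below the fold threshold. Of 13 genes of SRF, myocardin and TGF-beta regulation, 0 were past 1.5-fold and the median log2 ratio was 0.04. The counting interval was wholly below 0 for 2 of the 13, beside 17.6% of all genes, and wholly above 0 for 3, beside 19.6%. The most abundant were Smad2 (70.6 and 70.3 RPKM) and Smad3 (61.3 and 70.4 RPKM), which carry the TGF-beta signal, the MCAT-binding factor Tead1 (39.5 and 44.9 RPKM) and the receptor Tgfbr1 (41.5 and 40.2 RPKM). Srf and its partners were picked after their values were seen, for their place in the pathway. Srf stood at 23.5 and 21.4 RPKM, a log2 ratio of -0.13 (-0.23 to -0.04). Myocd, which encodes myocardin, stood at 1.63 RPKM in both libraries. The myocardin-related factors Mrtfa and Mrtfb stood at 15.2 and 15.6 RPKM and at 15.7 and 17.5 RPKM. Klf4, also picked after its values were seen, had the log2 ratio of this list that was largest in size. It stood at 44.2 and 33.7 RPKM, a log2 ratio of -0.38 (-0.51 to -0.27).

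SRF also drives immediate-early genes, which respond to stimulation within minutes, and these included 2 genes past the fold threshold. Of 6 such genes, 2 were lower by more than 1.5-fold in the Bcas2F/-;Vasa-Cre library and 0 were higher by as much, beside 1.69% and 1.57% of all genes. Their median log2 ratio was -0.23. The list was drawn up with earlier results of these data known, so these counts do not test whether it stands out. Fosb fell from 10.9 RPKM (612 reads) to 0.276 RPKM (15 reads), a log2 ratio of -3.22 on the RPKM + 1 scale. Fos fell from 11.8 to 7.34 RPKM, a log2 ratio of -0.62. Egr1 stood at 17.7 and 14.9 RPKM, Ier2 at 19.6 and 16.7 RPKM, Junb at 6.25 and 6.94 RPKM and Egr2 at 5.58 and 7.57 RPKM. These genes are not particular to smooth muscle, and the cells behind these values cannot be told apart in whole testes.

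Promoters were searched for the sites of these regulators, the CArG box bound by SRF and the MCAT element (CATTCC, or GGAATG on the other strand) bound by Tead factors. The window was 250 bases before to 50 bases after the start (RefSeq, GRCm38.p6), and 5 of the 8 genes had an entry: Acta2, Mylk, Cnn1, Des and Tpm2. No full CArG box was in these 5 windows, beside 1.63% of all 32851 promoters. Acta2 held 2 CArG-like boxes, in which 1 of the 6 middle bases is neither A nor T and which 8.5% of all promoters hold, and 1 MCAT element, which 14.7% hold. Mylk held 1 MCAT element. In both genes the matches lie inside the gene as GENCODE bounds it, since the RefSeq start differs from the GENCODE one. The 30-base windows around them are shown 5′ to 3′ on the strand of the gene, with the match in capitals, because Acta2 and Mylk are the genes whose intervals lay off 0.
Acta2 MCAT, chr19:34255502-34255531, minus strand, from base -146: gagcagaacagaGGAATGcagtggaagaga
Acta2 CArG-like, chr19:34255438-34255467, minus strand, from base -84: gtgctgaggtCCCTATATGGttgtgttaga
Acta2 CArG-like, chr19:34255388-34255417, minus strand, from base -34: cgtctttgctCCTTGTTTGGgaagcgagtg
Mylk MCAT, chr16:34784780-34784809, plus strand, from base -158: tgcagttcagaaCATTCCctggtacgtgca
Base positions count from the RefSeq start of the gene. A match describes letters only, and binding to these sites was not measured.

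Of 21 further genes of the peritubular and interstitial layers and of hedgehog signalling, 20 had a mean of at least 1 RPKM, 0 were past 1.5-fold, and the median log2 ratio was 0.11. The counting interval was wholly above 0 for 9 of the 20, beside 19.6% of all genes, and wholly below 0 for 3, beside 17.6%. Dhh, the Sertoli cell ligand that drives peritubular differentiation, stood at 74.9 and 90.1 RPKM, a log2 ratio of 0.26. The mesenchymal factor Tcf21 stood at 69.3 and 84.4 RPKM, the receptor Pdgfra at 47.4 and 52.3 RPKM and the basement membrane gene Nid1 at 42.6 and 43.1 RPKM. The ends of the list, picked after their values were seen, were Fn1, which encodes fibronectin (27.7 and 20.8 RPKM, log2 ratio -0.40), and Gdnf, the spermatogonial growth factor (5.55 and 7.80 RPKM, log2 ratio 0.43).

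**Figure D5:**
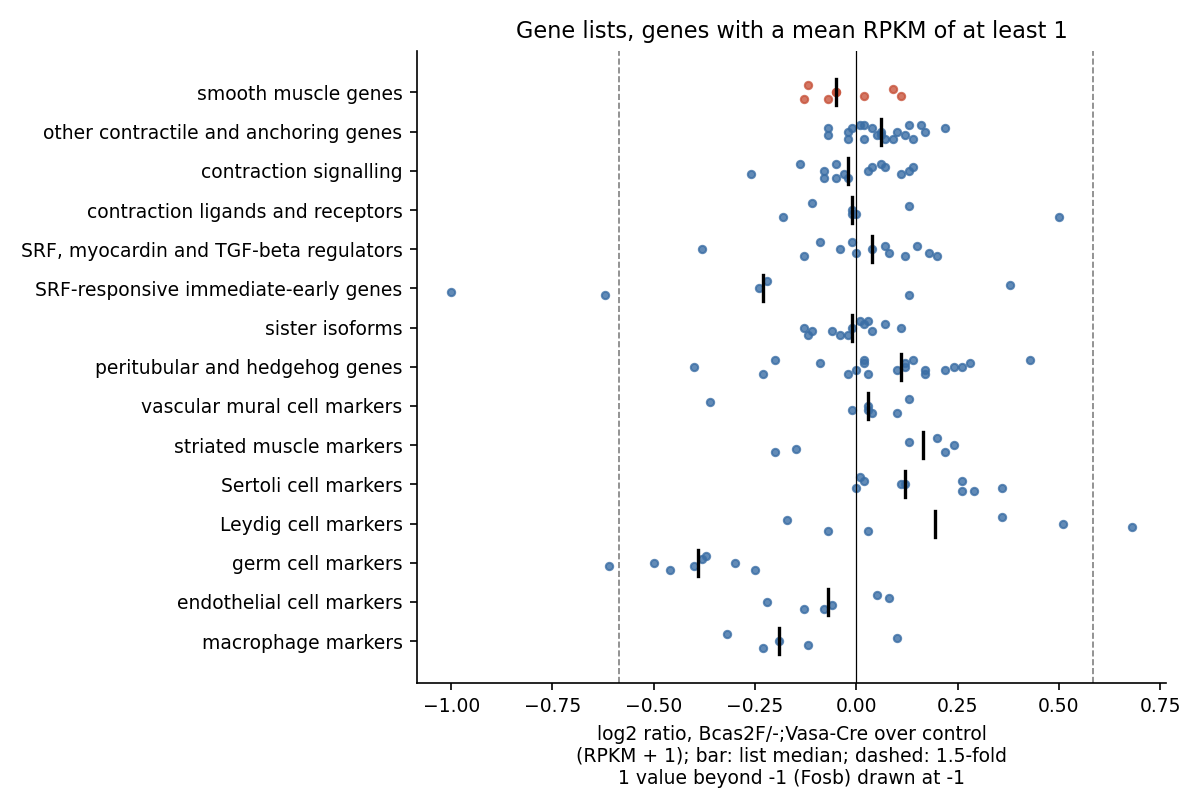
Log2 ratio (Bcas2F/-;Vasa-Cre over control, RPKM + 1) of each gene with a mean of at least 1 RPKM, by gene list, with a bar at each list's median and dashed lines at 1.5-fold. The 8 smooth muscle genes have a median of -0.05, the germ cell markers of -0.39 and the Sertoli cell markers of 0.12, and Fosb (-3.22) is drawn at the edge.

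Markers of other cells that the testis holds were set beside the 8 genes. All 7 vascular mural cell markers were expressed, with a median log2 ratio of 0.03 and a summed level of 121 and 103 RPKM. Most of that sum was Mcam (85.5 and 66.7 RPKM). The mural markers Rgs5 (23.9 and 24.6 RPKM), Notch3 (2.28 and 2.24 RPKM) and Cspg4 (2.49 and 2.55 RPKM) were near-equal. Markers of vessel wall cells were therefore above 0 in both libraries, and the part of those cells in the levels of the 8 genes was not tested. The 14 striated muscle markers summed to 35.3 and 34.9 RPKM, and 6 of them had a mean of at least 1 RPKM, with a median log2 ratio of 0.16. These 6 were Pygm (19.5 and 16.8 RPKM), Mylpf (5.41 and 6.0 RPKM), Actn2 (3.51 and 4.17 RPKM), Tnni2 (2.56 and 2.21 RPKM), Tnnt3 (1.39 and 1.79 RPKM) and Myh8 (1.05 and 1.42 RPKM). Among the others, Tnnc2 was at 0 in both libraries, Acta1 at 0.0701 and 0.0361 RPKM and Ckm at 0.213 and 0.402 RPKM. The part of striated muscle in the levels of the 8 genes was not tested.

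All 8 germ cell markers were lower in the Bcas2F/-;Vasa-Cre library, with a median log2 ratio of -0.39 and summed levels of 626 and 464 RPKM. The interval lay wholly below 0 for each of the 8, beside 17.6% of all genes, and Stra8 (87.2 and 56.8 RPKM) was past 1.5-fold, beside 1.69%. By real-time RT-PCR of P9 testes, the study reported similar RNA levels of Ddx4, Sohlh1, Kit, Dazl and Stra8 in both genotypes. It reported a lower level for Sycp3. Those levels were relative to Gapdh and came from replicates, while the RPKM are from 1 library per genotype and scaled to all its reads. Every germ cell marker had a lower log2 ratio than every one of the 8 smooth muscle genes. The 9 Sertoli cell markers with a mean of at least 1 RPKM had a median of 0.12 and summed levels of 3520 and 3850 RPKM, while Rhox5 was listed at 0 in both libraries. The interval lay wholly above 0 for 6 of these 9, beside 19.6% of all genes, and wholly below 0 for 0. The 6 Leydig cell markers had a median of 0.20 and sums of 387 and 431 RPKM, with Cyp17a1 past 1.5-fold (94.8 and 152 RPKM), beside 1.57% of all genes. They were mixed in direction, with 4 higher and 2 lower. The most abundant of them, Hsd3b1, was lower (189 and 168 RPKM, log2 ratio -0.17). Endothelial markers had a median of -0.07 and sums of 59.2 and 56.2 RPKM, and macrophage markers a median of -0.19 and sums of 47.7 and 42.4 RPKM. For macrophage markers the interval lay wholly below 0 for 2 of 5, beside 17.6% of all genes, and wholly above 0 for 0. The part of these shifts in the RPKM of the 8 smooth muscle genes was not tested.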

How the data were processed

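Testis RNA of 2 groups (control and Bcas2F/-;Vasa-Cre, 1 library each, P9) was compared. The deposited values are RPKM, which the authors made from paired-end reads. The submitters' processing notes name TopHat2 2.0.9 and the mm10 build. The study's methods name HTSeq for counting. The annotation release behind the RPKM was not given in the sources used here. The labels name the NEBNext Ultra kit. The labels give the strain as C57BL/6, and the study's methods describe a mixed background.

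Log2 ratios were taken on RPKM + 1. Genes with a mean of at least 1 RPKM were compared (14831 genes), with thresholds of 1.5-fold and 2-fold, and no test was made. Read counts were recovered from the RPKM, since the ratio of both libraries is a ratio of whole reads times 1.0304 for nearly every gene: 21876 of 22040 genes above 0 in both (99.3%) gave a clear ratio. The ratio fixes reads only up to a whole multiple, which was set from the mean GENCODE M21 transcript length. The recovered reads made up 98.1% and 97.8% of the library sizes. Intervals are Clopper-Pearson for ratios, without a pseudocount, and exact Poisson for levels, at 95%. The steps were tested on simulated data made with the GENCODE M21 mean lengths, so the choice of whole multiple was not tested. Of 39695 entries, 517 had no Ensembl identifier and 37692 (95.0%) were matched to symbols. Promoters were searched in RefSeq (GRCm38.p6) and coding sequences compared with Biopython 1.88 and BLAST+ 2.17.0, in place of a planned protein comparison, since no protein table was used here. BLAST+ found no gene at 90% identity over 100 bases or more for the 8, other than genes that overlap them. Python 3.11.15, numpy 2.4.6, scipy 1.17.1 and pandas 2.3.3 were used.

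The 8 genes and the 14 lists were chosen with earlier results of these data known. The text names Bcas2, the 8 genes, all the immediate-early genes, and the genes said to be picked after their values were seen. In each other list of contraction and regulation it names the up to 4 genes with the highest mean RPKM and any past 1.5-fold. Sister isoforms are also named for their sequences or from another list. In the lists of cell type markers, genes named beyond those past 1.5-fold were also picked after their values were seen. A gene that this rule would name is not reported here. Alternatives were other pseudocounts, scalings and filters.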

Additional observations from a re-analysis of the deposited data

How the results depend on the processing

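The 8 log2 ratios kept their signs under all 5 alternative pseudocounts and scalings, with ranges of -0.15 to -0.10 for Acta2, 0.00 to 0.05 for Myh11 and 0.10 to 0.14 for Mylk. The count past 1.5-fold or 2-fold was 0 in each alternative. Among all genes, 251 were past 1.5-fold downward and 233 upward, and with a pseudocount of 0.1 RPKM, counted after seeing the data, these were 457 (3.08%) and 454 (3.06%), and with 0.01 RPKM 485 and 491. In the lists either pseudocount changed 1 call, that of Avpr1a. Rescaling to an RPKM sum of 1000000 is a log2 shift of 0.0283 before the pseudocount, and less after it for genes of low level. The medians of 4 of the lists changed sign under at least 1 alternative: contraction ligands and receptors (-0.021 to 0.023), sister isoforms (-0.025 to 0.018), vascular mural cell markers (-0.159 to 0.057) and striated muscle markers (-0.037 to 0.198). Interval counts under the smallest whole reads, under a median set to 0 and under the rescaled RPKM were alternatives chosen after seeing the data, and each gave 1 gene wholly below 0 and 1 wholly above 0. No paired analysis was possible because each genotype had 1 library, and for the same reason no library could be left out. Depth limits Cnn1 (258 and 268 reads) and Actg2 (320 and 294 reads) most.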
